A study of Mus musculus with 26 samples.

Results

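Meg3, Rian and Mirg are long noncoding RNAs transcribed from 1 imprinted locus on mouse chromosome 12, and their levels and the ratios between them were followed across nuclei and cytoplasm of the mouse brain. They are 3 of the 27502 features in the counts table, which holds 27501 Ensembl gene identifiers and an entry for GFP. The genes were picked by name after all 3 had stood out as higher in sorted neuronal nuclei than in both glial types, so their neuron-to-glia differences are given as a description without a test.

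An imprinted gene is expressed mainly from the allele inherited from 1 parent. At this locus Meg3, Rian and Mirg are read from the maternal chromosome, whereas the protein-coding genes Dlk1, Rtl1 and Dio3 are expressed mainly from the paternal one. The maternal RNAs are spliced, are poorly translated, and carry small RNAs inside their introns and exons: Rian is known as a host of C/D box small nucleolar RNAs (snoRNAs), and Mirg as the host of a large microRNA cluster. Meg3 is known as a nuclear RNA that associates with chromatin regulators, and in mouse brain the locus is expressed chiefly in neurons. The counts do not separate the parental alleles, so imprinting itself was not measured.

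Whole brains served as the source, from mice between 6 and 12 weeks of age. Sorted neuron, sorted astrocyte and sorted oligodendrocyte nuclei came from mice carrying Tg(Snap25-EGfp/Rpl10a)JD362Htz, Tg(Aldh1L1-EGfp/Rpl10a)JD130Htz or Tg(Cnp-EGfp/Rpl10a)JD368Htz on a B6.FVB background, in which Snap25, Aldh1L1 or Cnp regulatory sequences drive a fusion of enhanced green fluorescent protein to the ribosomal protein Rpl10a. Presort nuclei, a mixture of cell types taken before sorting, came from the same 3 lines, so every group carried a transgene of this kind and none was wild type. Each of these 6 groups held 4 libraries, 2 from females and 2 from males, each from a single mouse. The 2 cytoplasm libraries were also from whole brain: replicate 1 from a male of the Aldh1L1 line and replicate 2 from a female of the Cnp line. Which sorted and presort libraries share a mouse is not stated in the labels.

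Total counts were 134357 to 3239445 in sorted, 147826 to 3274488 in presort and 3885312 or 4461568 in cytoplasm libraries, and a floor of 3 counts stood at 0.672 to 22.3 CPM, the usual count scaled to the library total. Of the 3 sorted types, Snap25, Aldh1l1 and Cnp were each highest in the type they mark, with means of 988 CPM for Snap25 in neuron, 233 CPM for Aldh1l1 in astrocyte and 1531 CPM for Cnp in oligodendrocyte nuclei. Summed over 12 pan-neuronal markers, sorted neuron nuclei held 6515 to 8398 CPM, sorted astrocyte nuclei 1666 to 2609 CPM and sorted oligodendrocyte nuclei 531 to 2536 CPM, and these markers were thus detected in the glial sorts too. Some libraries stood apart: sorted astrocyte replicate 30 was the shallowest, sorted oligodendrocyte replicate 36 had only 7674 genes detected, and among presort libraries the deepest was replicate 29 of the astrocyte line. The cytoplasm libraries differed from each other in 9 mitochondrially encoded RNAs, at 56057 CPM in replicate 1 and 5025 CPM in replicate 2.

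In GENCODE M21 (GRCm38) all 3 genes lie on the plus strand of chromosome 12. Meg3 (ENSMUSG00000021268) spans chr12:109541001-109571726 with 18.089 kb of exon sequence. Rian (ENSMUSG00000097451) spans chr12:109603940-109661716 with 18.234 kb of exon, and 13 annotated snoRNAs lie within it. Mirg (ENSMUSG00000097391) spans chr12:109729764-109749460 with 7.292 kb of exon. Intervals of 32.214 kb and 68.048 kb separate them, and the stretch from the Meg3 start to the Mirg end is 208.46 kb.

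The sequence ahead of Meg3 is shown because the locus is generally described as driven from the Meg3 promoter. The RefSeq window of 300 bases around the first Meg3 start (GRCm38.p6, plus strand, chr12:109540746-109541045) was searched on both strands for the cyclic AMP response element TGACGTCA and the TATA box TATAAA. Matches are in capitals.
Meg3 promoter window: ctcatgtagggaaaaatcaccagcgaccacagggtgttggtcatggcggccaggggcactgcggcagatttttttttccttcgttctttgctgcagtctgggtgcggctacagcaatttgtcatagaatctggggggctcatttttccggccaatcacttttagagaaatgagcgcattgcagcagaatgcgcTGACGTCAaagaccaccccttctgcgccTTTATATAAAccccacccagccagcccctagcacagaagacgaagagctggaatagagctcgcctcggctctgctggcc
The response element began 57 bases before the start site, and TATAAA lay 25 bases before it, overlapping a match on the other strand, TTTATA, that began 29 bases before it. RefSeq starts Mirg inside the span that GENCODE gives it, past the first of its microRNAs, so the annotations do not place its start alike. Neither motif was found in the window of a second Meg3 start, nor in those of Rian (chr12:109603695-109603994) and Mirg (chr12:109734731-109735030). Of 32851 RefSeq promoter windows of this length, 1.79% held TGACGTCA, 13.6% held TATAAA and 0.17% held both. These are matches of letters, not measured binding.

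RefSeq places 35 mature microRNAs inside the 3 genes: 3 in Meg3, 6 in Rian and 26 in Mirg. A few are printed to show what each host RNA carries, with the seed (bases 2 to 8, which pair with target messages) in capitals.
mmu-miR-770-3p, in Meg3: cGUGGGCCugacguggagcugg
mmu-miR-370-3p, in Rian: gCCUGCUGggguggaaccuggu
mmu-miR-341-3p, in Rian: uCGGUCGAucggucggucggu
mmu-miR-134-5p, in Mirg: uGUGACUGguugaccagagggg
mmu-miR-410-3p, in Mirg: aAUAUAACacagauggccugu
mmu-miR-453, in Mirg: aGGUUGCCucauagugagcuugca
mmu-miR-496a-5p, in Mirg: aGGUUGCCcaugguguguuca
The 35 microRNAs had 34 different seeds, and the only seed shared was GGUUGCC, in mmu-miR-453 and mmu-miR-496a-5p. miR-134 is known from rat neurons, where it limits the size of dendritic spines. The microRNAs themselves were not measured: the counts table has no row for a microRNA in the locus, and the values below are those of the host RNAs.

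Meg3 was among the most abundant features of brain nuclei. By mean CPM it ranked 2, 2 and 4 among all rows in presort nuclei of the neuron, astrocyte and oligodendrocyte lines, 14 in sorted neuron, 551 in sorted astrocyte and 153 in sorted oligodendrocyte nuclei, and 53 in cytoplasm. Together the 3 RNAs took 0.443 to 0.674% of all counts in sorted neuron, 0.0191 to 0.0729% in sorted astrocyte and 0.0555 to 0.115% in sorted oligodendrocyte libraries. They took 0.542 to 1.09% in presort nuclei, against 0.0516 and 0.298% in the cytoplasm libraries.

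Meg3 had 2562, 3409, 3295 and 2292 CPM in sorted neuron nuclei, 328, 201, 447 and 132 CPM in sorted astrocyte nuclei and 435, 973, 699 and 714 CPM in sorted oligodendrocyte nuclei. Every neuron library was above every glial library. In presort nuclei it had 7086, 6778, 6122 and 5786 CPM in the neuron line, 8097, 5592, 8081 and 9198 CPM in the astrocyte line and 6244, 4634, 6155 and 3960 CPM in the oligodendrocyte line, against 161 and 2599 CPM in cytoplasm. By group mean, its order was presort astrocyte line (7742 CPM), presort neuron line (6443 CPM), presort oligodendrocyte line (5248 CPM), sorted neuron (2890 CPM), cytoplasm (1380 CPM), sorted oligodendrocyte (705 CPM) and sorted astrocyte (277 CPM). The only neighbours in this order whose libraries did not overlap were the presort oligodendrocyte line and sorted neuron nuclei.

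Rian had 1139, 2169, 2534 and 2417 CPM in sorted neuron nuclei, 75.9, 90.6, 201 and 49.4 CPM in sorted astrocyte nuclei and 84.9, 117, 201 and 46.8 CPM in sorted oligodendrocyte nuclei. The neuron libraries again lay above all glial libraries, and the glial types covered nearly the same range. Presort nuclei held 937, 1672, 1738 and 1556 CPM in the neuron line, 1218, 1179, 1868 and 1242 CPM in the astrocyte line and 1361, 751, 1532 and 892 CPM in the oligodendrocyte line, against 351 and 338 CPM in cytoplasm. Sorted neuron nuclei had the highest mean (2065 CPM), overlapping the presort groups below them (1476 CPM in the neuron, 1377 CPM in the astrocyte and 1134 CPM in the oligodendrocyte line). Cytoplasm (344 CPM) was separate from the groups on either side, and sorted oligodendrocyte (112 CPM) and astrocyte (104 CPM) nuclei overlapped.

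Mirg had 726, 967, 911 and 663 CPM in sorted neuron nuclei, 27.7, 22.6, 81.9 and 9.88 CPM in sorted astrocyte nuclei and 35.5, 63.4, 65.9 and 1.87 CPM in sorted oligodendrocyte nuclei. The lowest of these was replicate 36, with 3 counts. Presort nuclei held 671, 1502, 820 and 652 CPM in the neuron line, 758, 746, 832 and 491 CPM in the astrocyte line and 701, 504, 444 and 569 CPM in the oligodendrocyte line, against 4.71 and 41.4 CPM in cytoplasm. The presort and sorted neuron groups overlapped as neighbours (means of 911, 817, 706 and 555 CPM in the presort neuron line, sorted neuron, presort astrocyte line and presort oligodendrocyte line). A gap followed, below which sorted oligodendrocyte (41.7 CPM), sorted astrocyte (35.5 CPM) and cytoplasm (23.1 CPM) libraries overlapped.

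**Figure D1:**
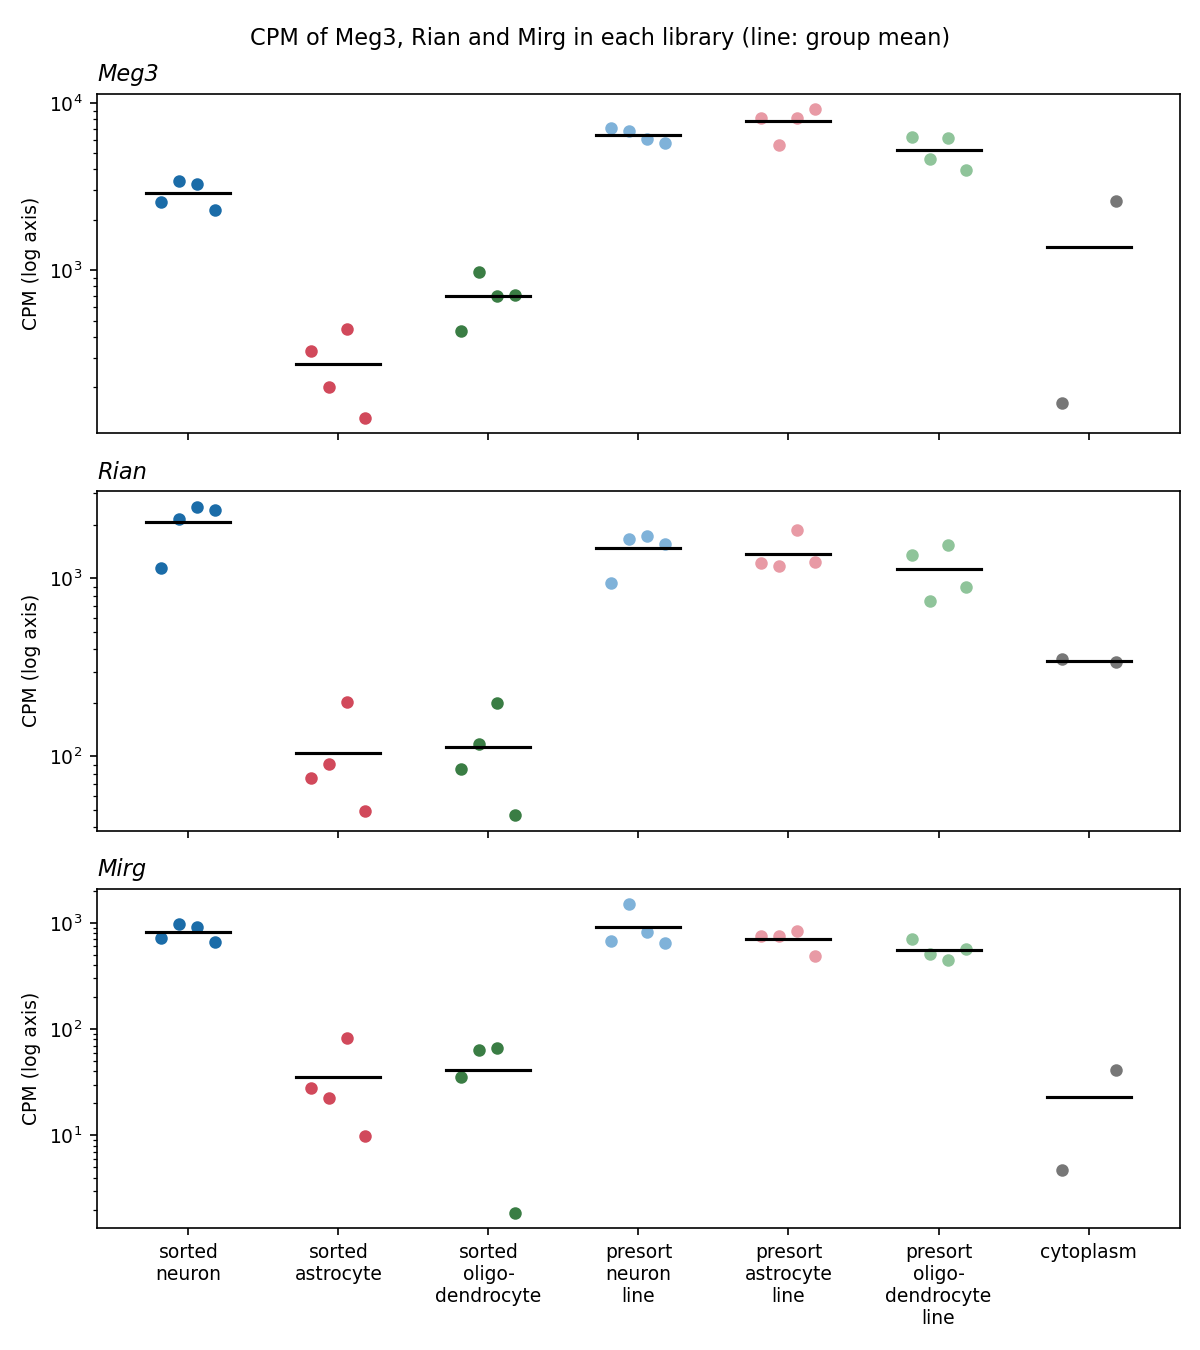
CPM (log axis) of Meg3, Rian and Mirg in each of the 26 libraries, by group; points are libraries and lines are group means. For each RNA the 4 sorted neuron libraries lie above all 8 sorted glial libraries, and the 12 presort libraries lie above both cytoplasm libraries.

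Per kilobase of exon the 3 RNAs were closer to each other in sorted neuron nuclei than in presort nuclei of that line. Sorted neuron nuclei held 160 ± 30.3 CPM per kb of Meg3, 113 ± 34.9 CPM per kb of Rian and 112 ± 19.9 CPM per kb of Mirg (SD, n = 4). Presort nuclei of the neuron line held 356 ± 32.9 CPM per kb of Meg3, 80.9 ± 20.1 CPM per kb of Rian and 125 ± 54.9 CPM per kb of Mirg (SD, n = 4). No source used here states which regions were counted, so exon length is an assumption for reads from nuclei.

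The neuron-to-glia difference, which chose these genes, was smallest for Meg3 and larger for Rian and Mirg. Log2 fold changes of sorted neuron over sorted astrocyte nuclei were 3.26 ± 0.41 for Meg3, 4.24 ± 0.48 for Rian and 4.63 ± 0.76 for Mirg (SE, edgeR, n = 4 each). All 3 were without overlap, as were 20% of the 13029 genes tested in that direction. Over sorted oligodendrocyte nuclei, the log2 fold changes were 1.58 ± 0.38 for Meg3, 3.86 ± 0.47 for Rian and 4.0 ± 0.71 for Mirg, again all without overlap, as were 24.7% of genes in that direction. Fewer cells of a type in a sort and less RNA per cell cannot be told apart in these bulk libraries.

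The levels left in the glial sorts can be set beside neuronal markers in the same libraries. Sorted astrocyte nuclei held 9.58% of the sorted neuron mean for Meg3, 5.05% for Rian and 4.35% for Mirg, and sorted oligodendrocyte nuclei held 24.4% for Meg3, 5.44% for Rian and 5.10% for Mirg. The summed pan-neuronal markers stood at 30.7% of the sorted neuron mean in astrocyte and 20.6% in oligodendrocyte nuclei. The 8 markers of cerebellar granule cells, an abundant small neuron, stood at 5.01% in astrocyte and 3.99% in oligodendrocyte nuclei. The part of neuronal RNA in the glial levels of the 3 RNAs was not tested.

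Astrocyte and oligodendrocyte nuclei were compared with a test. This difference did not choose the genes, but the same libraries, set against neurons, did, so the p-values are not from samples kept out of that choice. Meg3 was lower in astrocyte than in oligodendrocyte nuclei, with a log2 fold change of -1.67 ± 0.38 (edgeR, adjusted p = 0.00521), although the lowest oligodendrocyte library (435 CPM) lay just under the highest astrocyte library (447 CPM, from the 60 Meg3 counts of the shallow replicate 30). Rian (-0.38 ± 0.43, adjusted p = 0.663) and Mirg (-0.63 ± 0.68, adjusted p = 0.644) did not pass. The background was 9.62% of 13029 genes called higher and 7.49% called lower in astrocyte nuclei. The pan-neuronal sum had a median of 2345 CPM in astrocyte nuclei and 1482 CPM in oligodendrocyte nuclei. Its ranges overlapped, at 1666 to 2609 CPM and 531 to 2536 CPM. Snap25, a marker in that sum, had the other order, with means of 130 CPM in astrocyte and 205 CPM in oligodendrocyte nuclei. The part of neuronal RNA in the Meg3 difference was not tested. The 6 choroid plexus and ependymal markers summed to 604 to 7086 CPM in astrocyte and 44.9 to 168 CPM in oligodendrocyte nuclei, without overlap, and their part in the Meg3 difference was not tested. Leaving out any library kept Meg3 past the threshold (highest adjusted p 0.0235), and without oligodendrocyte replicate 36 Mirg passed as well, at -1.21 (adjusted p = 0.0416).

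Presort nuclei were compared with cytoplasm to ask in which fraction the 3 RNAs take the larger share of counts, and all 3 were higher in nuclei. The amount of RNA in each fraction is not known, so the part of each RNA that lies in the nucleus was not measured. Mirg averaged 724 ± 276 CPM in the 12 presort libraries, against 23.1 CPM over the 2 cytoplasm libraries, a log2 fold change of 4.49 ± 0.62 and a fold of 22.5 (edgeR, adjusted p = 5.36e-06). Meg3 averaged 6478 ± 1488 CPM in presort nuclei, against 1380 CPM in cytoplasm, with 1.78 ± 0.55 (adjusted p = 0.01), and Rian averaged 1329 ± 356 CPM in presort nuclei, against 344 CPM in cytoplasm, with 1.36 ± 0.34 (adjusted p = 0.00221). All 3 were without overlap between nuclei and cytoplasm, as were 22.3% of the 7728 genes tested in that direction. Over all genes, 20.6% were called higher in nuclei and 29.8% lower.

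The size of the Meg3 difference rested on the cytoplasm library: it was 4.64 without cytoplasm replicate 2 and 0.97 without replicate 1, where it still passed (adjusted p = 0.0344). Mirg ranged from 3.77 without replicate 1 to 6.54 without replicate 2, and Rian from 1.23 without replicate 2 to 1.63 without replicate 1. Replicate 1, which had the lower Meg3 and Mirg, also had the higher pan-neuronal sum, at 20236 CPM against 9279 CPM in replicate 2. Its choroid plexus and ependymal marker sum was lower, at 190 CPM against 1493 CPM. Summed over 4 RNAs known to stay in the nucleus (Malat1, Neat1, Miat and Xist, the last transcribed in females), the libraries were close, at 5910 CPM in replicate 1 and 7110 CPM in replicate 2, against 29716 to 90504 CPM in presort nuclei. The part of these differences in the cytoplasm values of the 3 RNAs was not tested.

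Sorted and presort nuclei of the same line were set side by side as a description, since the sorted libraries served in the choice of genes. In the neuron line Meg3 was lower after sorting, with a log2 fold change of -1.05 ± 0.18 and no overlap. Of all 11024 genes tested there, 9.13% were likewise lower without overlap. Rian had 0.60 ± 0.26 and Mirg -0.03 ± 0.25, both overlapping. In the same libraries the pan-neuronal sum was 6515 to 8398 CPM after sorting, against 4472 to 5453 CPM before it, and the granule cell sum was 7278 to 13600 CPM, against 5028 to 7253 CPM. Total counts also differed, at 2394993 to 2654141 in sorted neuron and 234547 to 306296 in presort libraries of that line. The part of depth in the Meg3 difference was not tested.

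Meg3 was higher in every presort library (3960 to 9198 CPM) than in every sorted library (132 to 3409 CPM), although the mixture holds the 3 types that were sorted. With size factors from the median of ratios in place of CPM the order was the same, at 2772 to 6139 normalized counts in presort and 115 to 2332 in sorted libraries. This comparison was added after the values were seen, so the share of genes given next does not measure how unusual Meg3 is. Of 10359 genes with a mean of at least 10 CPM in nuclei, 17 were higher in every presort than in every sorted library, or 0.164%. Rian and Mirg were not among them: their highest sorted libraries, at 2534 CPM for Rian and 967 CPM for Mirg, were neuron libraries above most or all of the presort ones. Markers of types that were not sorted for also moved: 4 oligodendrocyte precursor markers summed to 179 to 382 CPM in presort nuclei, against 13.3 to 104 CPM in sorted nuclei without overlap. The 5 endothelial markers summed to 76.5 to 824 CPM in presort nuclei, against 0 to 95.3 CPM in sorted nuclei, and these ranges overlapped. So did those of the 6 microglia markers, at 86.1 to 401 CPM in presort and 2.5 to 92.0 CPM in sorted nuclei. The 6 choroid plexus and ependymal markers moved in both directions from 386 to 1160 CPM in presort nuclei. They summed to 604 to 7086 CPM in sorted astrocyte, 92.6 to 143 CPM in sorted neuron and 44.9 to 168 CPM in sorted oligodendrocyte nuclei. Their part in the Meg3 difference was not tested.

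In the glial lines all 3 RNAs were lower after sorting, without overlap. Log2 fold changes of sorted over presort nuclei in the astrocyte line were -4.65 ± 0.34 for Meg3, -3.71 ± 0.34 for Rian and -4.60 ± 0.42 for Mirg, where 18.6% of genes were lower without overlap. They were -2.28 ± 0.42 for Meg3, -2.90 ± 0.45 for Rian and -3.39 ± 0.70 for Mirg in the oligodendrocyte line, where 19.7% of genes were.

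**Figure D2:**
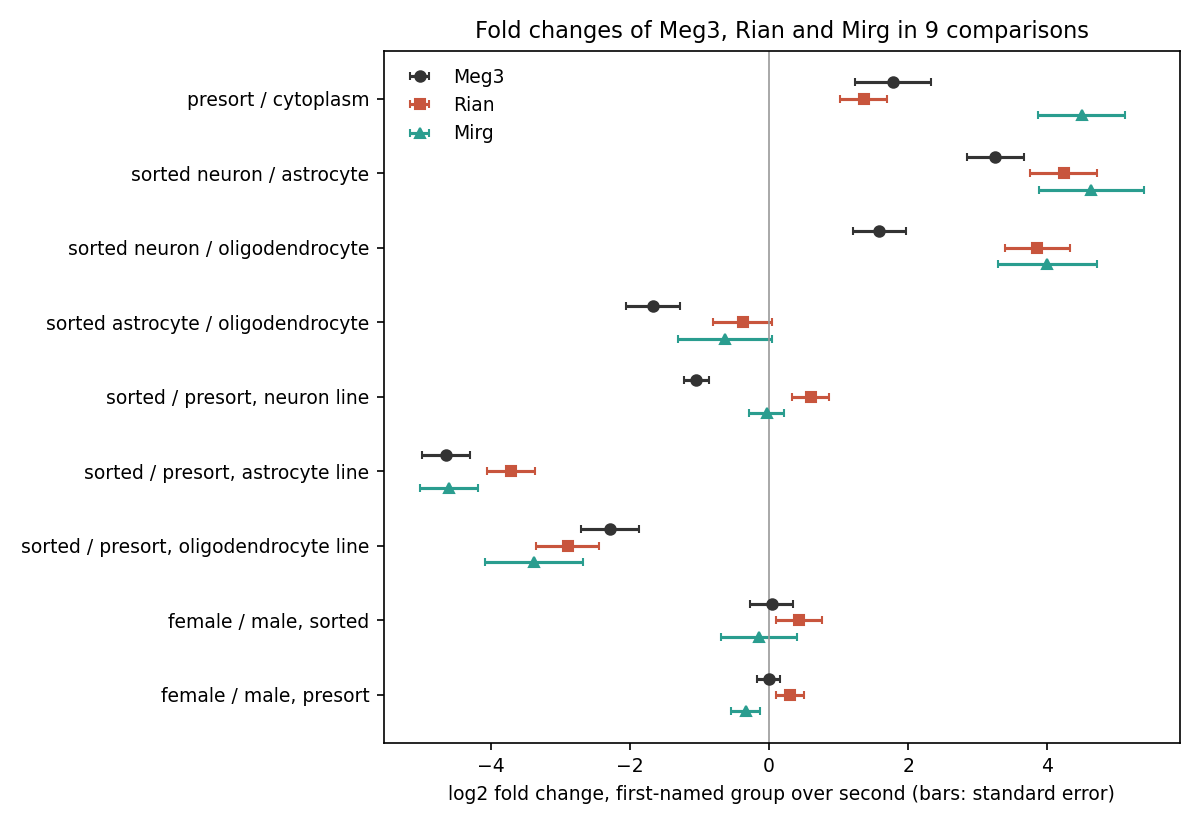
Log2 fold changes of Meg3 (circles), Rian (squares) and Mirg (triangles) in 9 comparisons, the first-named group over the second, with standard errors from edgeR. In the comparison of presort nuclei with cytoplasm Mirg stands at 4.49, above Meg3 (1.78) and Rian (1.36), and in the neuron line only Meg3 (-1.05) lies well below 0 after sorting.

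Ratios between the RNAs within a library do not depend on how libraries are scaled. Mirg to Meg3, per kb of exon, was 0.703, 0.704, 0.686 and 0.717 in sorted neuron libraries, the narrowest range of any ratio and group. It was 0.209, 0.279, 0.455 and 0.186 in sorted astrocyte and 0.202, 0.162, 0.234 and 0.00651 in sorted oligodendrocyte libraries. The neuron value was thus above all glial ones, and the 12 presort libraries (0.132 to 0.550, median 0.274) all lay below it. Cytoplasm was lower still, at 0.0726 and 0.0395.

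Rian to Meg3, per kb of exon, was 0.441, 0.631, 0.763 and 1.05 in sorted neuron libraries, above the 4 presort libraries of that line (0.131, 0.245, 0.282 and 0.267). It was 0.229, 0.447, 0.446 and 0.373 in sorted astrocyte and 0.194, 0.119, 0.285 and 0.0650 in sorted oligodendrocyte libraries. Cytoplasm gave 2.16 in replicate 1 and 0.129 in replicate 2, on either side of all presort libraries (0.131 to 0.282). The 2 cytoplasm libraries thus agreed on the level of Rian but not on its ratio to Meg3.

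Mirg to Rian, per kb of exon, was 1.59, 1.12, 0.898 and 0.686 in sorted neuron libraries and overlapped every other nuclear group. Medians were 0.769 in sorted astrocyte, 0.933 in sorted oligodendrocyte, 1.49 in the presort neuron line, 1.33 in the presort astrocyte line and 1.44 in the presort oligodendrocyte line. Cytoplasm, at 0.0336 and 0.306, lay below all presort libraries (0.725 to 2.25) and all sorted libraries except oligodendrocyte replicate 36 (0.100).

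Of 6 exact two-sided permutation tests of these ratios, none passed after Benjamini-Hochberg adjustment over the 6. Against cytoplasm (n = 2), presort nuclei (n = 12) had a Mirg to Meg3 ratio 4.99 times as high (log2 difference 2.32, exact permutation p = 0.022, adjusted p = 0.0659) and a Mirg to Rian ratio 13.1 times as high (3.71, exact permutation p = 0.022, adjusted p = 0.0659). Here 0.022 is the smallest p that 12 against 2 libraries allow. The Rian to Meg3 ratio had a log2 difference of -1.39 (exact permutation p = 0.286, adjusted p = 0.343), and it was -3.42 without cytoplasm replicate 2 and 0.64 without replicate 1. Between sorted astrocyte and oligodendrocyte nuclei the log2 differences were 1.33 for Rian to Meg3 (exact permutation p = 0.0571, adjusted p = 0.114), 1.62 for Mirg to Meg3 (p = 0.143, adjusted p = 0.214) and 0.29 for Mirg to Rian (p = 0.914). The smallest p that 4 against 4 allow is 0.0286. Without oligodendrocyte replicate 36 the Mirg to Meg3 difference was 0.45 and the Mirg to Rian difference was -0.50.

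**Figure D3:**
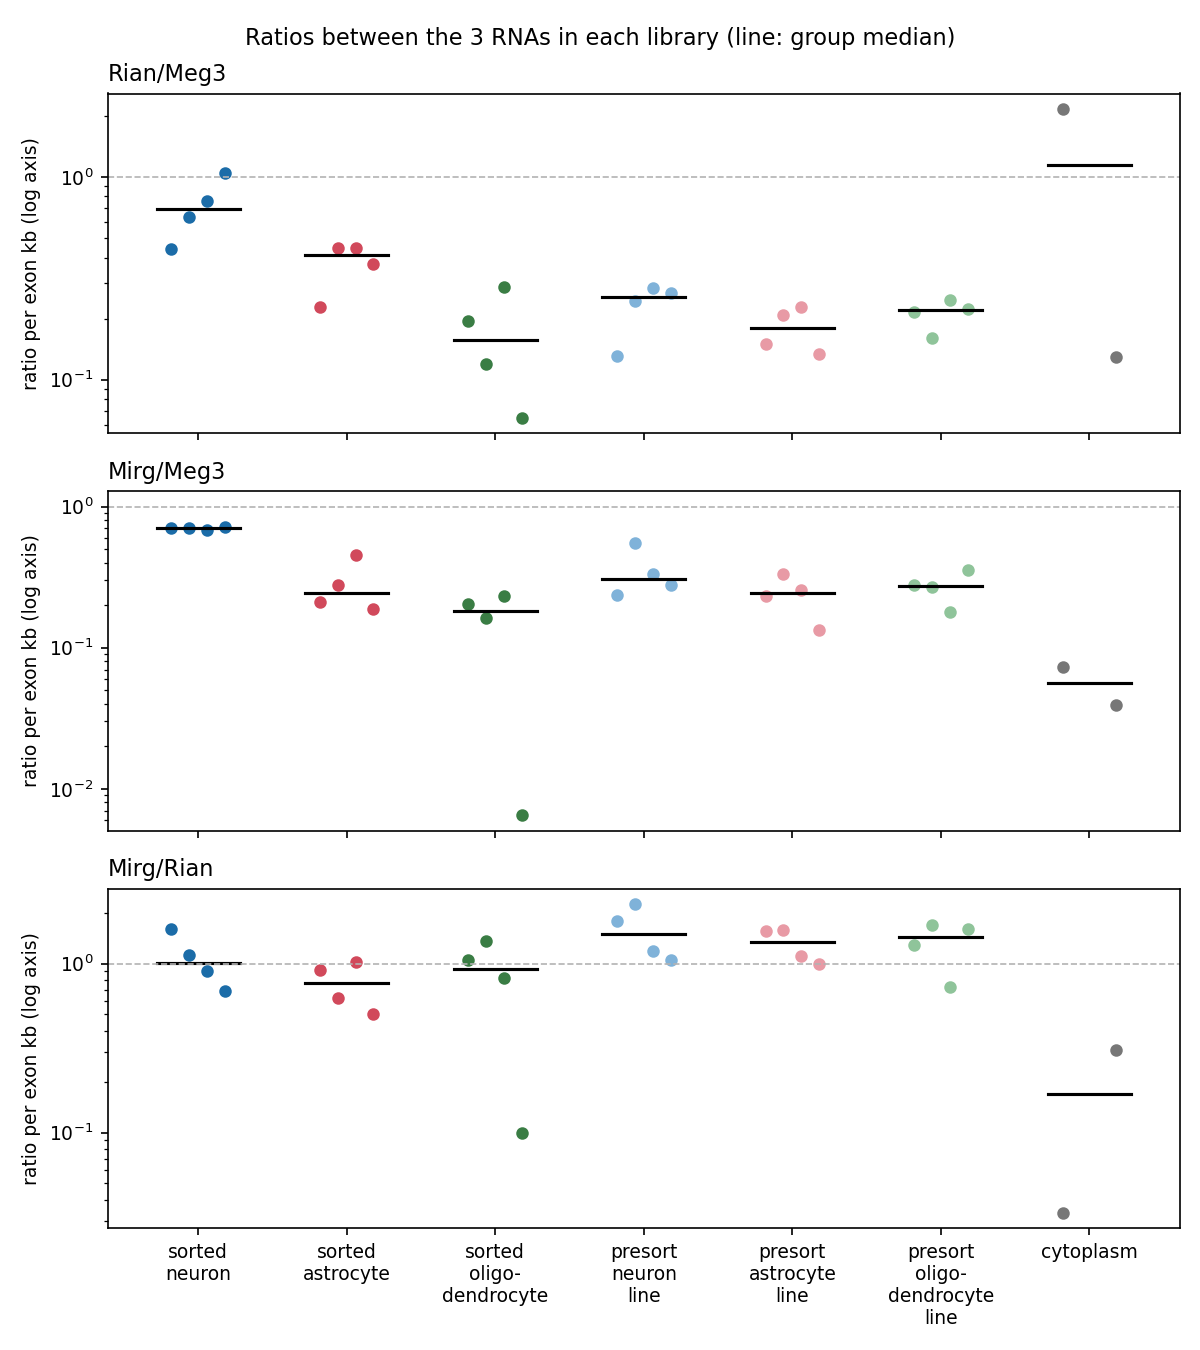
Ratios of Rian to Meg3, Mirg to Meg3 and Mirg to Rian per kilobase of exon (log axis) in each of the 26 libraries; points are libraries, black lines are group medians, and the dashed line marks a ratio of 1. Mirg to Meg3 lies between 0.686 and 0.717 in the 4 sorted neuron libraries, and Rian to Meg3 is 2.16 and 0.129 in the 2 cytoplasm libraries.

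Sex and mouse line were tested within nuclei. In presort nuclei no gene passed among the 3 lines in edgeR (0% of 6049 genes, with 205 at an unadjusted p under 0.05), and DESeq2 called 4. The adjusted p in edgeR was 0.999 for each of the 3 RNAs. Before adjustment the edgeR p was 0.0681 for Meg3, 0.456 for Rian and 0.0724 for Mirg. Between females and males, log2 fold changes in presort nuclei were -0.01 ± 0.17 for Meg3 (adjusted p = 0.993), 0.30 ± 0.20 for Rian (adjusted p = 0.587) and -0.34 ± 0.21 for Mirg (adjusted p = 0.548), where 0.599% of 7173 genes were called higher and 0.0558% lower. In sorted nuclei they were 0.04 ± 0.31 for Meg3 (adjusted p = 0.98), 0.43 ± 0.33 for Rian (adjusted p = 0.868) and -0.15 ± 0.54 for Mirg (adjusted p = 0.958), where 0.0141% of 14164 genes were called higher and 0.0282% lower. Among nuclear libraries males were numbered 1 to 12 and females 25 to 36, so sex and the block of replicate numbers cannot be told apart.

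The rest of the locus was read from 32 rows of the table between Dlk1 and Dio3, 19 of which had a count and 8 of which reached a mean of 10 CPM in some group. Rtl1, a retrotransposon-derived protein gene between Meg3 and Rian, averaged 56.3 CPM in sorted neuron, 1.11 CPM in sorted astrocyte and 5.93 CPM in sorted oligodendrocyte nuclei. It was higher in presort nuclei (45.5 CPM) than in cytoplasm (3.86 CPM), by 3.08 ± 0.71 on the log2 scale (edgeR, adjusted p = 0.00124). The kit keeps no strand, so Rtl1 and its maternal antisense RNA cannot be told apart. B830012L14Rik, a long noncoding RNA between Rian and Mirg, averaged 59.2 CPM in sorted neuron, 1.47 CPM in sorted astrocyte and 7.13 CPM in sorted oligodendrocyte nuclei, and it was higher in presort nuclei (44.6 CPM) than in cytoplasm, where it had 2 counts in all (adjusted p = 1.2e-06).

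Gm26906 lies on the opposite strand at the Meg3 end and shares 1228 exon bases with it, so reads from that stretch cannot be told apart by strand. It averaged 199 CPM in sorted neuron, 15.1 CPM in sorted astrocyte and 23.2 CPM in sorted oligodendrocyte nuclei. It was higher in presort nuclei (375 CPM) than in cytoplasm (46.6 CPM), by 2.56 ± 0.62 (edgeR, adjusted p = 0.00186). The cytoplasm libraries were far apart for it, at 3.59 CPM in replicate 1 and 89.6 CPM in replicate 2, so the size of this difference is uncertain. Gm26945, inside Rian, averaged 31.7 CPM in sorted neuron, 2.44 CPM in sorted astrocyte and 2.13 CPM in sorted oligodendrocyte nuclei, and had 3 counts in all in cytoplasm. Dlk1, a paternally expressed gene for a transmembrane protein related to Notch ligands, averaged 33.2 CPM in presort nuclei, against 92.7 CPM in cytoplasm. Its log2 fold change was -1.94 ± 0.54 (edgeR, adjusted p = 0.00525), and its presort and cytoplasm libraries overlapped. The cytoplasm mean rested on replicate 2, at 151 CPM, whereas replicate 1, at 34.7 CPM, was close to the presort mean. Dlk1 libraries overlapped among the sorted types, with means of 18.6 CPM in neuron, 21.8 CPM in astrocyte and 13.1 CPM in oligodendrocyte nuclei. Dio3, the deiodinase that inactivates thyroid hormone, had 11 counts in all 26 libraries, and 10 of the 23 snoRNA rows had any count.

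**Figure D4:**
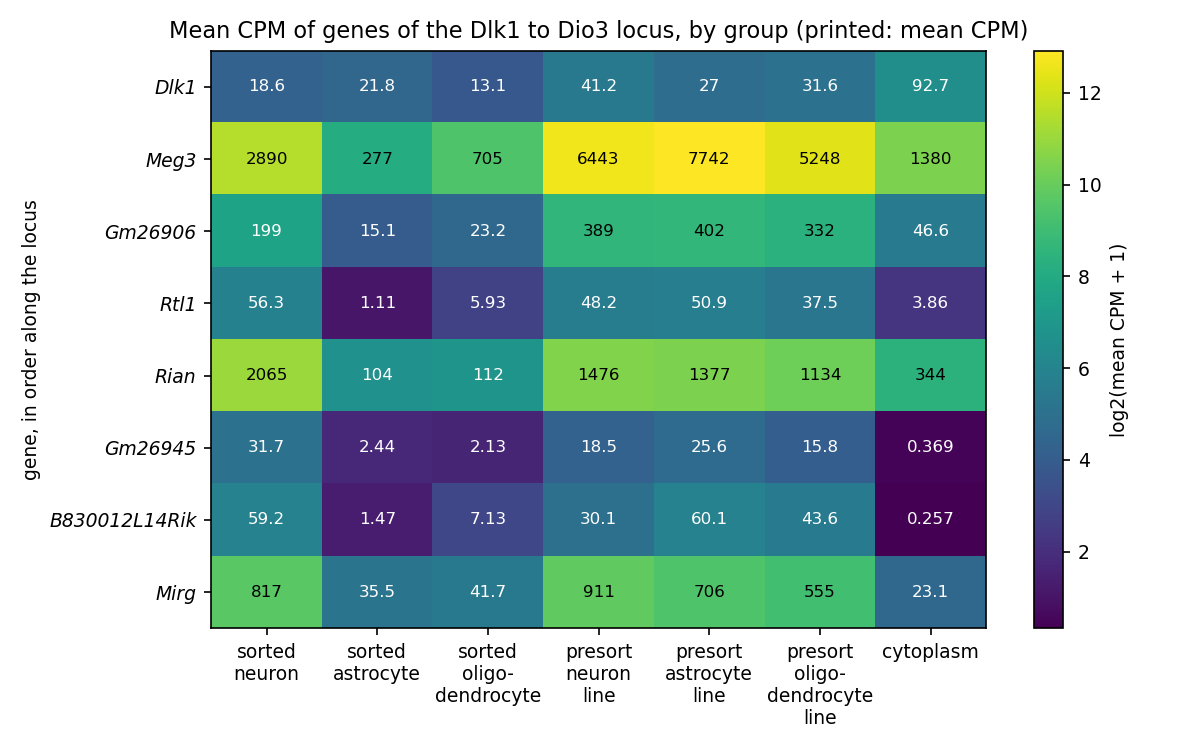
Mean CPM by group for the 8 genes between Dlk1 and Dio3 that reached 10 CPM in a group, in order along the chromosome; colour is log2(mean CPM + 1) and the printed number is the mean CPM. Rows for Meg3, Gm26906, Rtl1, Rian, Gm26945, B830012L14Rik and Mirg are each lower in both sorted glial groups than in sorted neuron nuclei. Dlk1 stands at 18.6, 21.8 and 13.1 CPM in the 3 sorted types. Its 92.7 CPM in cytoplasm is a mean of 34.7 CPM in replicate 1 and 151 CPM in replicate 2.

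Other imprinted genes were read from a list of 51 mouse genes, of which 44 were in the table. Between presort nuclei and cytoplasm 27 were tested, 4 were higher and 9 lower in nuclei, and the median log2 fold change was -0.44, against -0.10 over all genes tested. With 20.6% of all genes called higher and 29.8% lower, these counts were near the background. The 4 that were higher were Rtl1, Sgce (2.15 ± 0.67, adjusted p = 0.0111), a sarcoglycan gene, Kcnk9 (1.62 ± 0.48, adjusted p = 0.00762), a potassium channel gene, and Igf2r (1.46 ± 0.43, adjusted p = 0.00836), the receptor that clears insulin-like growth factor. The largest decreases in nuclei were in Nap1l5 (-3.39 ± 0.30, adjusted p = 3.2e-08), Plagl1 (-3.17 ± 0.65, adjusted p = 0.000403), a zinc finger factor, Ndn (-2.93 ± 0.41, adjusted p = 6.16e-06), which encodes necdin, and Impact (-2.42 ± 0.37, adjusted p = 1.93e-05). Between astrocyte and oligodendrocyte nuclei 31 of the list were tested: Nnat was higher in astrocyte nuclei (3.04 ± 0.85, adjusted p = 0.0186), and Plagl1 (-1.84 ± 0.57, adjusted p = 0.0354) and Inpp5f (-1.71 ± 0.51, adjusted p = 0.0277) were lower. Over all genes 9.62% were called higher and 7.49% lower, so the list did not exceed the background.

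As a description, the genes whose log2 CPM followed each RNA most closely over the 26 libraries were sought among 15145 genes. The libraries share group structure and differ in depth, so high correlations are common here. The highest Pearson correlations for Mirg were with Ryr3 (0.958), an intracellular calcium channel gene, Mir124a-1hg (0.956), the host of the neuronal microRNA miR-124, Trank1 (0.948), D630045J12Rik (0.945) and Tnr (0.945), which encodes tenascin R. For Rian they were with Cntnap2 (0.963), a neuronal adhesion gene, Galnt13 (0.959), Cers6 (0.958), a ceramide synthase gene, and St8sia3 (0.955), a sialyltransferase gene, next to the row ENSMUSG00000099249 described below. For Meg3 they were with ENSMUSG00000098724 (0.982), Gm26906 (0.939), ENSMUSG00000098440 (0.939), Snhg11 (0.938), a snoRNA host gene, and ENSMUSG00000098117 (0.899).

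Among themselves the RNAs correlated at 0.806 for Meg3 and Rian, 0.834 for Meg3 and Mirg and 0.876 for Rian and Mirg over 26 libraries. Within the 12 sorted libraries the values were 0.849, 0.75 and 0.943 for the same pairs in that order, and within the 12 presort libraries, which were not sorted by type, 0.54, 0.182 and 0.484. All 3 RNAs were chosen as higher in sorted neuron than in sorted glial nuclei. High correlations in the sorted libraries and over all 26 thus follow in part from that choice. The row ENSMUSG00000099249, not annotated in the tables used, held 35163 counts against 34940 for Rian, equalled Rian in 8 of 26 libraries and differed from it by at most 6.74% in the others. ENSMUSG00000098440 likewise held 4997 counts against 4994 for Gm26906 and equalled it in 21 of 26 libraries. How reads were assigned between such rows is not given in these sources. The values of Rian and Gm26906, and the ratios that use Rian, are therefore uncertain by an amount that these counts do not give.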

How the data were processed

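The deposited data were a single table of raw gene counts for 26 libraries, whole numbers that the authors had not normalized. RNA was amplified with the NuGEN Ovation RNAseq V2 kit, per the labels' protocols, which keeps no strand and adds no molecular identifiers, and the floor of 3 counts therefore covers counting error only. Trimmomatic, Bowtie2, STAR, bedtools and edgeR are named, without versions or roles, per the submitters' processing notes. The genome build, annotation, counted regions and sorting method are stated in no source used here.

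Identifiers were matched to GENCODE M21 (26495 of 27501 found), and sequences came from RefSeq GRCm38.p6. CPM scales each count to its library's total. Counts were tested with the quasi-likelihood test of edgeR 4.0.16 in R 4.3.3 (TMM normalization, filterByExpr with a minimum count of 10, two-sided, Benjamini-Hochberg adjustment over all genes tested, threshold 0.05), with standard errors derived from the F statistic. A fit of all 12 sorted libraries served the 3 types. The 12 presort libraries were compared with the 2 cytoplasm libraries, and each line's 8 libraries with one another. Sex was fitted with cell type or line as covariate. Ratios were logs of counts plus 0.5, tested with exact permutation tests in scipy 1.17.1. DESeq2 1.42.0, other scaling, no filter, and leaving out each library were tried. The fits were tested on simulated counts. No replicates were copies (chi-square per degree of freedom at least 2.15).

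The 3 genes and all lists were chosen with earlier results of these data known. Named beside them were locus genes reaching 10 CPM in a group, up to 4 other imprinted genes per direction with the largest passing changes, and the 5 most correlated genes. The comparison of all presort with all sorted libraries, with its scaling alternative, was added after the values were seen.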

Additional observations from a re-analysis of the deposited data

Results flagged for a closer look

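Rian in presort nuclei of the astrocyte line had a library far from the others of its group: replicate 29 held 1868 CPM, against 1218, 1179 and 1242 CPM in the other 3, and its gap to the nearest of them was 0.909 of the group's range, above Dixon's critical value for 4 libraries. It was also the deepest presort library, with 3274488 counts; the part of depth in its value was not tested. It was the only such case among 36 groups of 4 libraries examined, and chance alone marks about 1 in 20.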

How the results depend on the processing

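Of 625 recomputed values for 49 results, 572 were labelled unchanged, by a rule that depended on the kind of value. Tested values had to keep their direction and their side of the threshold. Numbers of genes called had to stay within a fixed fold of the main number. Values without a test had to keep their sign or order, and in most cases to move by less than the spread between libraries. The nuclear excess of each of the 3 RNAs over cytoplasm and the lower Meg3 of astrocyte nuclei passed in every alternative run. Where 1 cytoplasm library was left, it was assumed to vary like the presort libraries. Without a filter on low counts, presort nuclei had 2617 genes higher and 4198 lower than cytoplasm, 1 gene differed among lines, and 111 genes were higher and 18 lower in female than in male presort nuclei, and 23 higher and 7 lower in sorted nuclei. With DESeq2 those counts were 4 among lines, 108 and 20 in presort and 49 and 10 in sorted nuclei, against 43 and 4 in presort and 2 and 4 in sorted nuclei in edgeR. Leaving out 1 library at a time gave 13 to 43 genes higher and 2 to 3 lower by sex in presort nuclei (13 without presort astrocyte-line replicate 29), and 2 to 42 higher and 3 to 9 lower in sorted nuclei (42 and 9 without sorted oligodendrocyte replicate 36). It gave 990 to 1980 genes higher and 715 to 1588 lower in astrocyte than in oligodendrocyte nuclei, the upper ends without replicate 36.

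Directions turned for values near 0 or resting on 1 library: the female over male log2 fold change of Meg3 ran from -0.12 to 0.089 in presort nuclei (0.048 without a filter) and from -0.15 to 0.19 in sorted nuclei, that of Mirg in sorted nuclei from -0.56 to 0.061, and Mirg in sorted over presort nuclei of the neuron line from -0.19 to 0.36. The presort minus cytoplasm log2 difference of Rian to Meg3 ran from -3.42 to 0.64, and the astrocyte minus oligodendrocyte difference of Mirg to Rian from -0.50 to 0.68. The cause was not tested. With gene span in place of exon length, the sorted neuron medians were 0.374 for Rian to Meg3 (0.697 by exon) and 0.442 for Mirg to Meg3 (0.704 by exon), since the divisor changes. No paired analysis was made because the sorted and presort groups share no replicate number. Presort and cytoplasm libraries of the same line do not share a replicate number either. Libraries from the same mouse may be among them, but the labels do not state which, and the fits treated all libraries as independent. In the shallowest libraries 3 counts correspond to 22.3 CPM, so Mirg in sorted astrocyte replicate 30 rests on 11 counts.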

Other observations

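The ratio of Rian to Meg3 per kb of exon, read by sex after its values were seen, was 0.763 and 1.05 in female and 0.441 and 0.631 in male sorted neuron libraries. In presort nuclei of the neuron line it was 0.282 and 0.267 in females and 0.131 and 0.245 in males. In sorted astrocyte nuclei it was 0.446 and 0.373 in females and 0.229 and 0.447 in males, and in sorted oligodendrocyte nuclei 0.285 and 0.0650 in females and 0.194 and 0.119 in males, so the sexes overlapped in both glial types. In presort nuclei it was 0.229 and 0.134 in females and 0.149 and 0.209 in males of the astrocyte line, which overlapped, and 0.247 and 0.223 in females and 0.216 and 0.161 in males of the oligodendrocyte line. In cytoplasm the female library had 0.129 and the male library 2.16. These cytoplasm libraries also differed in line, with the male from the Aldh1L1 and the female from the Cnp line. In nuclei sex coincided with the block of replicate numbers, so sex cannot be told apart from line in cytoplasm or from block in nuclei. No test was made of this ratio by sex.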
